A study of Homo sapiens with 24 samples.

Results

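The peaks described here are stretches of RNA that carried m6A signal in pancreatic progenitors (PP) and again in islet-like organoids (hILO), with none at the same place in pluripotent cells (hPSC) or definitive endoderm (DE). In m6A-seq an antibody against N6-methyladenosine pulls methylated RNA fragments out of the sample (IP), and their reads are compared along each transcript with reads of the untreated fragments (input). A peak is a stretch where IP exceeds input. The members were chosen by measured values: a PP peak needed 50 or more input reads, more than 50% of its span covered on the same strand by hILO peaks, and no base shared with a peak of hPSC or DE on that strand. This left 1082 peaks of 29083 in the PP list, or of 19014 PP peaks with the same minimum of input reads, and of 228472 peaks in all 6 lists. Read on either strand, absence from hPSC and DE would keep 1017 of the 1082, with 39.8% of these found in the WT PP list. The values that made this choice are given as a description, and the lists of the knockout experiment, which the choice did not use, carry the comparison.

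All cells derive from MEL1 INSGFP/W, an established human embryonic stem cell line with a GFP reporter at 1 copy of the insulin gene. hPSC, DE, PP and hILO are successive stages of one differentiation, profiled as batch 1 from mRNA with a SYSY antibody. Batch 2 compared PP of wild-type cells (WT PP) with PP of cells in which CRISPR-Cpf1 had cut the first exon of ALKBH5, an m6A demethylase (A5-KO PP), from total RNA with a Millipore antibody and rRNA removed from the input. The 24 libraries comprise 2 IP and 2 input libraries for each of the 6 populations, whose counts were deposited pooled as 1 list. Values per library were not used here, so no spread between the replicate libraries is given and no test across conditions was made. Intervals of shares below are Wilson 95% intervals that cover counting error only. Those of medians are order-statistic 95% intervals that cover the spread of peaks and not of cultures. The 2 batches differ in RNA, antibody and kit, so the experiment and the batch cannot be told apart, and each list was normalized separately. The WT PP list held 43312 peaks with a median of 80 input reads, 4997 of them without an input read. The A5-KO PP list held 55219 with a median of 33 input reads, 13568 of them without one. Counts of peaks present in WT PP and A5-KO PP thus compare lists of unlike size and depth. Of 7 PP marker genes, 6 had a peak in PP and in hILO and 7 in WT PP and A5-KO PP, while all 6 endocrine markers had a peak in hILO and 2 in PP. Insulin transcripts had peaks in hILO alone. The PP marker without a peak in PP and hILO was PTF1A. Some markers of the earlier stages also had peaks. Of 6 hPSC markers, 3 had a peak in PP (summed input 4264 reads) and 2 in hILO (577 reads). In WT PP and A5-KO PP it was 2 each (915 and 1166 reads). Of 5 DE markers, 1 had a peak in PP (507 reads) and 1 in hILO (1218 reads). In WT PP and A5-KO PP it was 3 each (2127 and 1333 reads). Of 12 markers of liver, neurons, mesenchyme and endothelium, 4 had a peak in PP (summed input 3884 reads) and 7 in hILO (19736 reads). In batch 2 the number was 5 for WT PP (1673 reads) and 9 for A5-KO PP (3013 reads). Their part in the results below was not tested.

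m6A is written co-transcriptionally by a methyltransferase complex around METTL3 and METTL14, mostly at the consensus DRACH, in which D stands for any base but C, R for a purine and H for any base but G. GGAC is the core of its most frequent form. The mark is removed by ALKBH5 and FTO and read by YTH domain proteins, some of which direct the transcript to decay. Methylation of a site and expression of its gene cannot be told apart from a peak list alone. Pancreatic identity rests on transcription factors such as PDX1 and NKX6-1, which are kept in beta cells. PDX1 is present already in the posterior foregut, the stage before the progenitors.

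The sequences below were read from GRCh38 on the transcript strand, 5′ to 3′, with every DRACH site in capitals. They show the progenitor and gut endoderm factors that the results turn on, 1 endocrine factor whose peak held no site, the peak with the highest enrichment, an epithelial integrin, and the well covered peak with the largest drop in A5-KO PP. Peaks inside coding sequence are printed whole, and for UTR peaks a window of 25 nt at 1 site is printed.
NKX6-1, coding, chr4:84493462-84493511, minus strand: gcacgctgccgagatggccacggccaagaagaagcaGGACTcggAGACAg
NKX6-1, 3′ UTR, chr4:84492856-84492880, minus strand: accgcatgggGGACCtcggagcgaa
PDX1, 3′ UTR, chr13:27924758-27924782, plus strand: gggcctaggaGGACCccgggcgtgg
ONECUT2, 3′ UTR, chr18:57476719-57476743, plus strand: catgatggaaGGACTctcacttggg
ONECUT2, 3′ UTR, chr18:57478135-57478159, plus strand: cgggctgagcGGACCagctacacca
MNX1, coding, chr7:157005747-157005846, minus strand: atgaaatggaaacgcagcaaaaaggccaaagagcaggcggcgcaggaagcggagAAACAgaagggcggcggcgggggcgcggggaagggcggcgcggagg
CDX2, 5′ UTR, chr13:27969165-27969189, minus strand: ccagagggagGGACCgcctcggagg
INSM1, coding, chr20:20369679-20369728, plus strand: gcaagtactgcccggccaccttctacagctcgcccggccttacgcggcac
BLOC1S5-TXNDC5, coding, chr6:8064269-8064318, minus strand: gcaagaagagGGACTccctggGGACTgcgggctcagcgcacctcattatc
ITGB8, coding, chr7:20401801-20401950, plus strand: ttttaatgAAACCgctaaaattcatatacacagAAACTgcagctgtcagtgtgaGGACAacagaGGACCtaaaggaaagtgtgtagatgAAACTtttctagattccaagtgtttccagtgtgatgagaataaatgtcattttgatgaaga
SRGAP3, 3′ UTR, chr3:8984916-8984940, minus strand: ctgggaGAACTtaaaggcccatagt

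The 1082 members lay on 922 genes. Of these genes 810 had 1 member, 87 had 2 and 25 had 3 or more. ONECUT2 and PRDM16 held 7 each. Coding genes carried 919 members and lncRNAs 131, a share of 12.1% (10.3% to 14.2%) against 6.99% of all PP peaks with 50 or more input reads. In the deposited list 192 members were assigned to several overlapping genes, and reads of neighbouring genes cannot be told apart there.

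Members were as deep as other PP peaks but narrower. The median member had 170 input reads (quartiles 92 and 367) and 688 IP reads in PP, against 163 and 697 over all 19014 PP peaks. The authors' log2 enrichment (IP over input) had a median of 1.58 (quartiles 1.22 and 2.07), against 1.55. The exonic length was 100 nt at the median against 175 nt, and 42.9% of members (40.0% to 45.9%) were 75 nt or shorter against 25.5%. The 7840 PP peaks also found in hPSC, DE and hILO had a median of 225 nt, and the 2920 found in PP alone a median of 75 nt.

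The members fell into a larger class on genes that already had m6A peaks and a smaller class on genes that had none. On genes without any peak in hPSC and DE lay 265 members, 24.5% (22.0% to 27.1%), against 3.87% of all PP peaks with 50 or more input reads. The choice itself raises this share, since a peak on such a gene has no earlier peak to overlap. Among the 3090 PP peaks that also shared no base with hPSC and DE but were not members it was 15.1% (13.9% to 16.5%). These 211 genes comprised 143 coding genes and 57 lncRNA genes. Absence of a peak does not show absence of the transcript, since a peak needs enough reads, and genes such as SEC23A and FARSB, which act in vesicle transport and in phenylalanine tRNA charging in every cell, were among them (both named after their values were seen). The other 817 members lay on genes with a peak elsewhere in hPSC or DE, and for 744 of them that gene had an earlier peak with 50 or more input reads.

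Many members of the larger class lay beside an earlier peak. Counted along the exons of the gene, 334 members, 30.9% (28.2% to 33.7%), lay within 200 nt of a peak of hPSC or DE, 239 within 100 nt and 86 directly at its edge. The median distance was 325 nt among 801 members. Here an earlier peak counts by its position within the annotated gene, whereas the 817 members above go by the gene named in the deposited list. MNX1, a homeodomain factor of the early pancreatic bud, had its member 25 nt from a DE peak. The member of INSM1, a zinc finger factor of endocrine differentiation, lay 25 nt from an hPSC peak. An m6A antibody resolves a stretch and not a base, so a member close to an earlier peak and a shifted border of the same stretch cannot be told apart. Shares found in the knockout experiment had overlapping intervals on both sides of this distance: 36.5% of the members within 200 nt were found in WT PP (31.5% to 41.8%) and 40.1% of the others (36.7% to 43.7%).

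The classes differed in width, and in the share of peaks with a site when lengths were pooled. Members on genes without earlier peaks had a median exonic length of 175 nt (95% interval 150 to 175), against 100 nt (75 to 100) on genes with earlier peaks. A GGAC site was present in 54.7% (48.7% to 60.6%) of the former and 33.0% (29.9% to 36.3%) of the latter, against 52.8% of all PP peaks. For DRACH the shares were 92.5% (88.6% to 95.1%) and 81.9% (79.1% to 84.4%), against 89.5%. A longer stretch holds more sites, so the shares were also compared within a length. Among peaks of 76 to 150 nt, GGAC was present in 47.5% and 36.1%, with overlapping intervals, and in 43.7% of all PP peaks of this length. Among longer peaks of up to 300 nt the shares were 68.4% (58.6% to 76.7%) and 58.6% (51.2% to 65.7%), which also overlap.

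Over all members, DRACH was denser on the transcript strand than on the opposite strand. Peaks of up to 1000 nt held 22.2 DRACH sites per 1000 nt, against 15.3 on the opposite strand and 18.5 in these genes' exonic sequence outside PP peaks. GGAC gave 4.52 sites per 1000 nt against 2.66 and 3.08. The limit of 1000 nt was set after seeing the data, because 12 longer members, among them 1 of 92306 nt on the pseudogene UBBP4, held nearly as much sequence as all the others together. With them DRACH gave 20.3 and GGAC 3.21 sites per 1000 nt, close to the surrounding exons. In all PP peaks of up to 1000 nt the densities were 23.0 and 5.10.

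On coding transcripts the members were spread like other PP peaks. Of 811 members placed on the longest coding isoform, 54.3% (50.8% to 57.7%) had their midpoint in the coding sequence, 38.5% (35.2% to 41.9%) in the 3′ UTR and 7.27% in the 5′ UTR, against 55.6%, 37.6% and 6.74% of all PP peaks. Fewer lay at the stop codon, where m6A is usually concentrated: 14.2% (11.9% to 16.8%) were within 200 nt of it, against 18.9%. On genes without earlier peaks this share was 20.4% (15.2% to 26.9%) and on genes with earlier peaks 12.4% (10.0% to 15.2%). The coding member of NKX6-1 is of the former kind, with its midpoint 196 nt before the stop codon.

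Genes of pancreatic and gut identity were the best represented among the gene lists examined. These lists were drawn up with results of these data in view and have no test, so the counts are descriptions. Over all genes, 5.69% of PP peaks with 50 or more input reads were members. Among transcription factors of pancreatic progenitors this was 22 of 79 peaks, 27.8% (19.2% to 38.6%), on PDX1, NKX6-1, MNX1, ONECUT2, ONECUT3, GATA4, GLIS3, MEIS2 and TCF7L2. Endocrine transcription factors gave 7 of 14 peaks, on NEUROD1, INSM1, RFX6 and PLAGL1. Gut and liver genes gave 11 of 28, 39.3% (23.6% to 57.6%), among them peaks on HNF4G, CDX2, ISX, APOB, VTN, VIL1, MUC13 and ANXA13. All 11 of these were on genes without an earlier peak, as were 12 of the 22 and 6 of the 7. Since the choice of members excluded peaks present in hPSC and DE, genes without peaks there had to be more frequent among them. Whether the genes of these lists were first expressed later was not tested.

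Wnt, Notch, BMP, FGF and Hedgehog genes were represented near or below that share, again as a description. Wnt pathway genes gave 5 of 97 peaks (FZD5, DVL3, LGR4, BCL9 and TCF7L2), Notch genes 2 of 56 (the ligand JAG1 and the ubiquitin ligase MIB1), and BMP, TGF-beta and Nodal genes 3 of 62 (ID2, GDF11 and SMAD3). FGF, EGF and receptor kinase genes gave 4 of 71, among them FGF9 and IGF2, and Hedgehog genes 1 of 32 (KIF7). Retinoic acid genes gave 3 of 29, with NRIP1, DHRS3 and RDH11, and axon guidance genes 8 of 93, with DCC, EFNB2, ROBO1, NEO1 and SEMA4D. Epithelial adhesion genes gave 7 of 78, extracellular matrix genes 7 of 83, neuronal markers 4 of 41 and islet hormone and secretion genes 2 of 20, the last on SNAP25 and GNAS. Zinc finger ZNF genes gave 28 of 840, 3.33% (2.32% to 4.78%). Of the m6A factors, with 73 PP peaks, 1 peak on the reader YTHDF2 was a member. Solute carriers gave 17 of 242. Protocadherins gave 4 of 24, 16.7% (6.68% to 35.9%), all on PCDH20. The potassium channel list gave 3 of 18, 16.7% (5.84% to 39.2%), of which KCNQ1OT1 is an antisense RNA and no channel. Both of these shares stand above that over all genes, on few peaks. Pluripotency markers had 17 PP peaks, HOX genes 18 and calcium channels 7, none of them members, and endothelial and blood markers had no PP peak.

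On the progenitor and endocrine factor lists, the member with the highest log2 enrichment in PP lay on NKX6-1, a homeodomain factor required for beta cells. Its coding peak had 575 input and 6042 IP reads in PP, with a log2 enrichment of 3.34 ± 0.06 (counting error), and 1374 input and 4021 IP reads in hILO, with 1.75 ± 0.05. The stretch is the first sequence above, 50 nt with 2 DRACH sites, 1 of them GGAC. It was covered in full in WT PP, by a peak with 170 input and 177 IP reads and a log2 enrichment of 2.58 ± 0.15, and shared no base with the A5-KO PP list. The second NKX6-1 member, in the 3′ UTR, had log2 enrichments of 1.19 ± 0.20 in PP and 1.22 ± 0.10 in hILO, was covered to 95.5% in WT PP, against exactly 50.0% in A5-KO PP, and so was found in WT PP only by the rule of more than 50%. Both conditions had NKX6-1 peaks, 5 in WT PP against 3 in A5-KO PP, with 2744 and 592 input reads inside them. These sums cover called peaks and are no measure of the level of the transcript.

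PDX1, the factor that marks pancreatic commitment, had 2 members in its 3′ UTR. The one nearer the stop codon had log2 enrichments of 1.18 ± 0.06 in PP, 1.36 ± 0.04 in hILO, 3.16 ± 0.07 in WT PP against 2.12 ± 0.07 in A5-KO PP, with 695, 1690, 580 and 853 input reads. It was thus present in all 4 pancreatic lists, lower by 1.04 on the log2 scale in A5-KO PP than in WT PP. The other, with 1769 input reads in PP, was covered to 46.2% in WT PP against 15.4% in A5-KO PP and counted as found in neither. One hILO peak covered both members, so they may be 2 pieces of 1 stretch.

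ONECUT2, a cut homeodomain factor of the progenitor stage, had 7 members, 6 of them in a 3′ UTR whose farthest member lay 14232 nt from the stop codon. In PP their log2 enrichment ranged from 0.97 to 2.51 and in hILO from 1.09 to 2.60, and each member was higher in hILO than in PP by less than 0.3. In WT PP and A5-KO PP 5 of the 7 were found. The 3 nearest the stop codon were covered there by 1 and the same wide peak, with 2.51 ± 0.07 in WT PP against 2.38 ± 0.10 in A5-KO PP. The 2 farther downstream had 6.59 ± 0.05 and 5.30 ± 0.05 in WT PP against 6.00 ± 0.03 and 4.51 ± 0.04 in A5-KO PP.

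Of the remaining progenitor factors, GLIS3 had 5 members, of which 3 were found, the same in WT PP and A5-KO PP. The deepest of them, in the coding sequence, had 5513 and 5113 input reads there and log2 enrichments of 2.72 ± 0.03 and 2.43 ± 0.03. GATA4, which specifies endoderm and is also a definitive endoderm marker, had 1 member with 4.99 in WT PP against 5.37 in A5-KO PP. Both MEIS2 members were found in WT PP and neither in A5-KO PP, and the ONECUT3 member was covered in full in WT PP, against 50.0% in A5-KO PP. MNX1 and TCF7L2 had 1 member each, found in neither list. Over the progenitor list 15 of 22 members were found in WT PP against 10 of 22 in A5-KO PP. The latter count leaves out the second NKX6-1 member and the ONECUT3 member, both covered to exactly 50.0% there. Over all members the shares were 39.0% and 36.2%, and over all PP peaks 58.2% and 54.6%. These shares also stand beside the counts of the lists below.

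Of the 7 members on endocrine factors, 2 were found in WT PP against 2 in A5-KO PP. RFX6, needed for islet development, had a coding member with log2 enrichments of 2.44 ± 0.16 in PP, 1.47 ± 0.21 in hILO, 2.80 ± 0.13 in WT PP against 2.05 ± 0.08 in A5-KO PP. NEUROD1, a basic helix-loop-helix factor of endocrine cells whose locus overlaps CERKL in the deposited list, had a member with 91 input reads in PP that was found in neither list, where the gene had 0 peaks in WT PP against 4 in A5-KO PP. INSM1 had no peak in these lists. Of the 4 members of PLAGL1, an imprinted zinc finger gene that overlaps HYMAI, 1 was found in each of WT PP and A5-KO PP.

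Gut and liver genes included regulators and secreted proteins. CDX2, the intestinal homeodomain factor, had 199 input reads in PP and 6836 in hILO at its 5′ UTR member, with log2 enrichments of 0.98 ± 0.11 and 1.44 ± 0.02. In WT PP its peak had 11 input reads and in A5-KO PP it was not found. APOB, the structural protein of lipoproteins, had 1 member, with 6.23 ± 0.09 in WT PP against 2.13 ± 0.25 in A5-KO PP. Over the list 3 of 11 members were found in WT PP against 6 of 11 in A5-KO PP. Outside the lists, GJB1, a gap junction protein, had 2 members on a gene without earlier peaks, both found in WT PP but 1 alone in A5-KO PP. GJB1 and ITGB8 were named after their values were seen. ITGB8, an integrin subunit, had 3 members, all found in both lists.

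**Figure D1:**
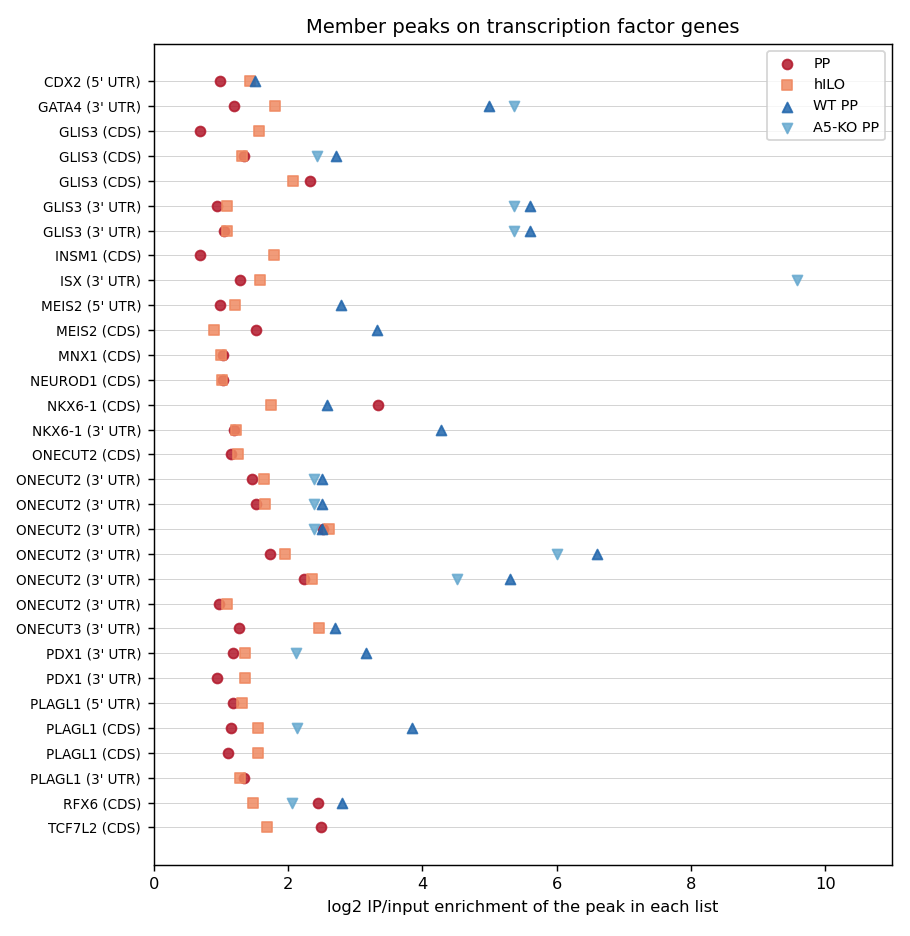
Log2 enrichment of IP over input for each member peak on genes of the progenitor and endocrine transcription factor lists and for the member with most PP reads of CDX2 and ISX. Each row is 1 peak, circles are PP, squares hILO, and triangles WT PP (up) and A5-KO PP (down), drawn only where the peak was found. Values of PP and hILO lie between 0.68 and 3.34, those of ONECUT2 in the separately normalized WT PP and A5-KO PP lists reach 6.59 and 6.00, and the ISX value of 9.58 in A5-KO PP rests on 0 input reads.

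In hILO the members were enriched about as strongly as in PP. The choice required a called peak in both lists, so this likeness is partly built in and is a description. The 2 lists were also scaled separately. The median log2 enrichment was 1.51 in hILO (quartiles 1.12 and 1.91), and the median difference, hILO minus PP, was −0.12 (−0.17 to −0.06), against −0.05 over the 11872 PP peaks found in hILO. Of the members 463 were higher in hILO, 42.8% (39.9% to 45.8%), against 46.4% of all PP peaks found in hILO. A difference of 1 or more was seen at 55 members, 5.08% (3.93% to 6.56%), against 4.63% of all PP peaks found in hILO, and of −1 or less at 106, 9.80% (8.17% to 11.7%), against 9.04%. The shares past a difference of 1 in either direction are near the background, while the share higher in hILO was below it. The hILO list had more reads, with a median of 352 input reads at the members. The peak with the highest enrichment in PP, 4.65 ± 0.16 at BLOC1S5-TXNDC5 with 80 input reads, had the largest drop, to 1.68 ± 0.23 in hILO. Its reads overlap BLOC1S5, TXNDC5 and a further readthrough gene and cannot be assigned to 1 of them.

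**Figure D2:**
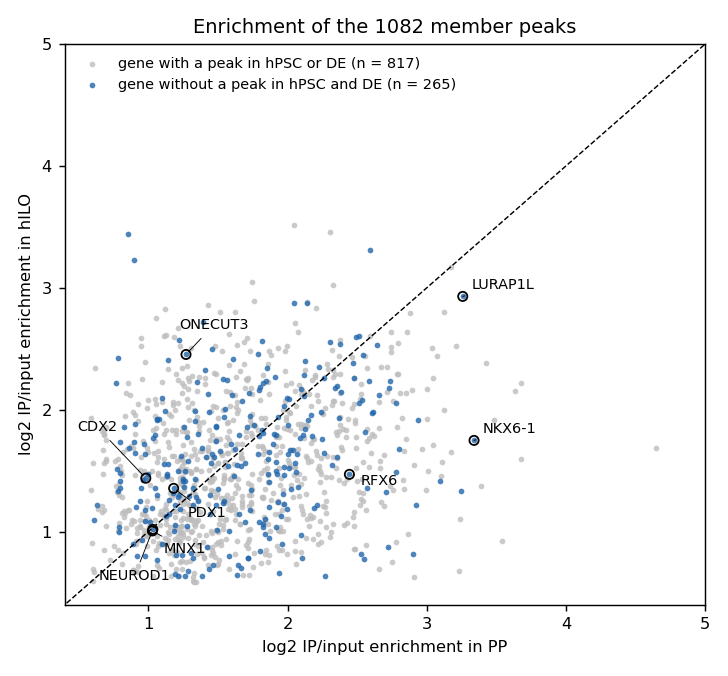
Log2 enrichment of IP over input of the 1082 members in PP (x axis) and in the hILO peak that shared most bases (y axis). Blue points are the 265 members on genes without a peak in hPSC and DE, grey points the 817 others, and the dashed line marks equal values. Circled points are the strongest member of 8 named genes, of which NKX6-1 lies at 3.34 in PP and 1.75 in hILO.

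IL6ST, the shared receptor subunit of the interleukin 6 family, had the member with most PP reads, 30754 in the input, and a log2 enrichment of 2.21 ± 0.01 in PP and 2.12 ± 0.01 in hILO, and no base of it was covered in WT PP or A5-KO PP. CEP290, a protein of the cilium, had 13034 input reads in PP but 107 in hILO. IGF2, an imprinted growth factor whose reads overlap those of INS-IGF2, had 7186. MTND6P4 is a pseudogene of mitochondrial origin and MUC20, with 4 members, has near-identical copies, so reads there can come from other loci.

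The peaks nearest the thresholds of the choice were as follows. SLC46A1 and LGR4 were just inside the input minimum with 50 reads each, and DNAJA4 and ZHX3 just outside with 49. In coverage by hILO, SERPING1 with 54.1% and SUB1P3 with 55.6% were just inside, and 2 peaks of KLHL20 with 50.0% just outside. TENM4 and the lncRNA ENSG00000284418 touched an earlier peak without sharing a base, whereas BRWD3 shared 25 bases with a DE peak and RPS6 25 with a peak of both stages. Without the input minimum the choice would have held 1720 peaks. In 27 members 50% or less of the exonic bases were shared with hILO peaks, in 5 of them none, because the covered span was partly intron.

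In the independent experiment the members were found less often than other PP peaks. In WT PP 422 of the 1082 were found, 39.0% (36.1% to 41.9%), against 58.2% of all PP peaks with 50 or more input reads. In A5-KO PP 392 were found, 36.2% (33.4% to 39.1%), against 54.6%. Both lists held 291 members, 26.9% (24.3% to 29.6%), and neither held 559, 51.7% (48.7% to 54.6%), against 46.7% and 33.9% of all PP peaks. These shares depend on what counts as found. With reciprocal overlap, more than 50% of both peaks, they were 14.4% (12.5% to 16.6%) in WT PP and 17.9% (15.8% to 20.3%) with A5-KO PP, so that the order of the lists turned, against 25.5% and 29.5% of all PP peaks. Among peaks with p below 1e-05 in the second list they were 23.5% and 22.9%, against 35.6% and 33.1%. Under each of these rules the share of members was below that of all PP peaks. Of PP peaks that were also found in hPSC, DE and hILO, 74.6% were in WT PP against 73.3% in A5-KO PP, and of those in PP alone 26.4% and 22.4%. The shares of the members lay between those of the peaks found at all stages and those of the peaks found in PP alone. Members on genes without earlier peaks were found more often than those on genes with them, 46.8% (40.9% to 52.8%) against 36.5% (33.2% to 39.8%) in WT PP and 44.9% (39.0% to 50.9%) against 33.4% (30.3% to 36.7%) in A5-KO PP. The former were also wider, with a median of 175 nt against 100 nt. Members above 300 nt had the highest share found, and the classes were not compared within a length.

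The interval of the members lay below that of the 17932 other PP peaks in all 4 ranges of PP input reads. Members with 50 to 99 input reads were found in WT PP in 38.5%, against 59.8% of the 5243 other PP peaks in that range. Members with 200 to 499 input reads were found in WT PP in 33.8% (28.7% to 39.3%), and those with 500 or more in 40.6% (33.9% to 47.8%), against 59.3% and 56.9%. By exonic length the shares found in WT PP were 37.9% for members of 76 to 150 nt and 59.4% for those above 300 nt, against 49.6% and 79.7% of the others. The interval of the members lay below that of the others in all 4 length classes in both lists. The classes of 75 nt or less were nearest, at 28.2% to 36.7% against 37.1% to 40.0% in A5-KO PP.

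**Figure D3:**
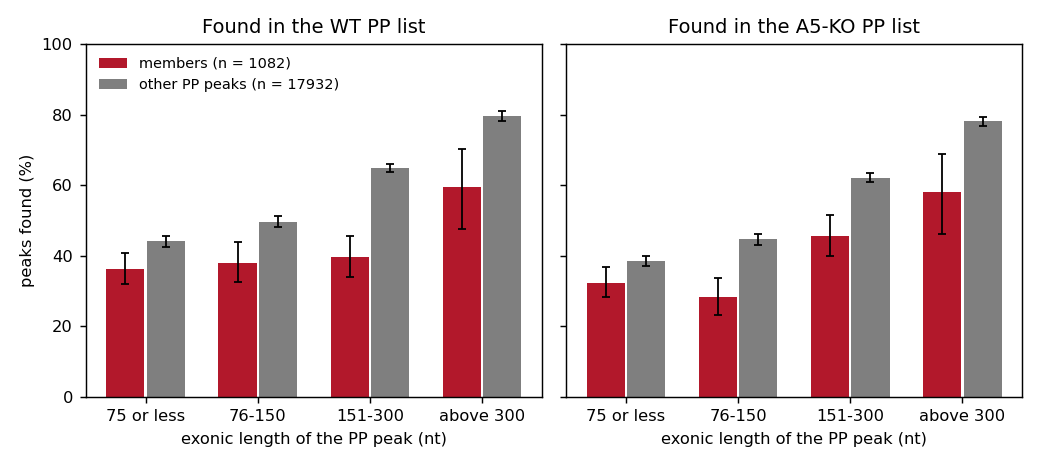
Share of members (red) and of other PP peaks with 50 or more input reads (grey) found in the WT PP list (left) and the A5-KO PP list (right), in percent, by exonic length of the PP peak. Error bars are Wilson 95% intervals. The shares of members in A5-KO PP were 32.3% at 75 nt or less, 28.2% at 76 to 150 nt and 58.0% above 300 nt, and in WT PP the shares above 300 nt were 59.4% for members and 79.7% for others.

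Of the 660 members not found in WT PP, 541 were on genes with a peak elsewhere in that list, 82.0% (78.9% to 84.7%), near the 83.2% of all PP peaks not found there. Of the 1082 members, 360, 33.3% (30.5% to 36.1%), shared no base with either list although the gene had a peak in both, against 20.2% of all PP peaks. Members that were found had a median input of 89.5 reads in WT PP, against 120 for all PP peaks found there, and of 62 reads in A5-KO PP, against 71. No input read was counted at 49 of the 422, 11.6% (8.90% to 15.0%), against 8.54% of all PP peaks found in WT PP. In A5-KO PP this was 77 of the 392, 19.6% (16.0% to 23.9%), against 16.6%. Several members could share 1 peak, since 399 and 374 distinct peaks covered them.

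Presence differed between WT PP and A5-KO PP in both directions. In WT PP but not A5-KO PP were 131 members, 12.1% (10.3% to 14.2%), against 11.5% of all PP peaks, and in A5-KO PP but not WT PP 101, 9.33% (7.74% to 11.2%), against 7.86%. Both shares are near the background. Of the 131, 107 shared no base with the A5-KO PP list, 9.89% of members (8.25% to 11.8%) against 7.77% of all PP peaks. That narrower share was above the background. Among the progenitor factors, members of NKX6-1, MEIS2 and ONECUT3 were of the first kind by the coverage rule. The coding members of NKX6-1 and MEIS2 shared no base with the A5-KO PP list. The second NKX6-1 member and the ONECUT3 member were covered there exactly to the limit of the rule. The other MEIS2 member was covered to just below it. Among the gut genes CDX2 was of the first kind and MUC13, ISX and ANXA13 of the second, as was AGR2, a protein of secretory epithelia that is on no list and was named after its values were seen.

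Where a member was present in both lists, its enrichment in A5-KO PP was centred near that in WT PP. Over 291 members the median difference in log2 enrichment, A5-KO PP minus WT PP, was 0.02 (95% interval −0.13 to 0.29), against 0.24 over 8889 PP peaks. It was 1 or more at 107 members, 36.8% (31.4% to 42.4%), against 36.5%, and −1 or less at 74, 25.4% (20.8% to 30.7%), against 26.8%. With 50 or more input reads in both lists the median was −0.10 (−0.28 to 0.04) over 118 members and 0.05 over 3761 PP peaks. In this deeper set 20 members were higher by 1 or more and 22 lower by 1 or more, 16.9% and 18.6%, against 22.9% and 18.3%. The interval of the median included 0 in both sets and did not extend beyond 0.29 on the log2 scale. It covers the spread of peaks, not of cultures.

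**Figure D4:**
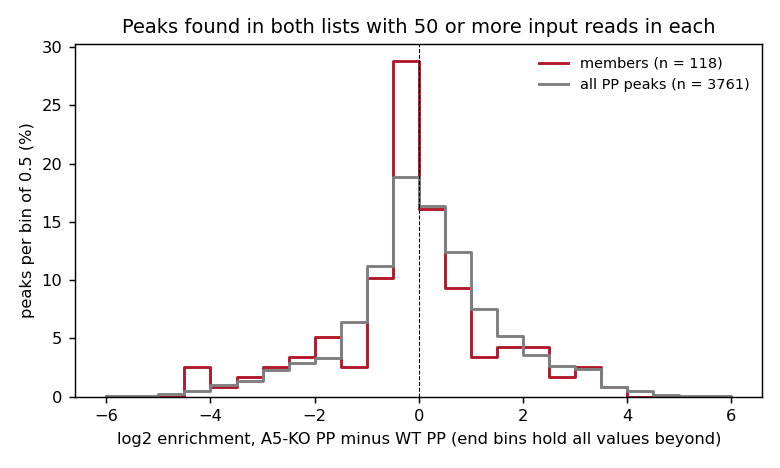
Difference in log2 enrichment, A5-KO PP minus WT PP (x axis, bins of 0.5), as a percentage of peaks (y axis), for 118 members (red) and 3761 PP peaks with 50 or more input reads (grey), both with 50 or more input reads in each of the 2 lists. The median lies at −0.10 for members and 0.05 for all, and both distributions extend beyond 3 in each direction.

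Single members differed widely, and the pooled lists give no spread between replicates to set beside these differences. With 50 or more input reads in both lists, the highest differences were at CFTR, the chloride channel of duct cells, with 1.23 ± 0.30 in WT PP against 5.07 ± 0.12 in A5-KO PP in the 3′ UTR, and at TENM4, a teneurin, with 3.90 ± 0.05 and 7.39 ± 0.09. MLLT10, LURAP1L and LRATD1 followed, with differences of 3.19, 3.18 and 2.96. The LRATD1 peak had 15312 input reads in A5-KO PP against 405 in WT PP. The lowest differences were at SRGAP3, a GTPase-activating protein, with 7.24 ± 0.14 in WT PP against 2.77 ± 0.01 in A5-KO PP, and at COX10, with 6.24 ± 0.12 and 1.83 ± 0.20. APOB, DMXL2 and a second CFTR member in the coding sequence followed at −4.10, −3.70 and −3.36. CFTR thus had a member at each end. The SRGAP3 peak had 104 input reads in WT PP against 19769 in A5-KO PP, so depth moved with the enrichment there.

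Of the 10 members with most reads in both lists, TMEM64 had the lowest difference, −2.09 ± 0.03, and ENSG00000284779 at the IGF2 locus the highest, 0.58 ± 0.04. The latter had 461529 input reads in WT PP against 3963 in A5-KO PP. ALPK3 had 5.35 in WT PP against 4.35 in A5-KO PP. FRMD4B, CDH6 and GLIS3 were also lower in A5-KO PP, with differences of −0.86, −0.43 and −0.28, and GATA4 was higher, with 0.38. The smallest differences were at ID2, an inhibitor of basic helix-loop-helix factors, at SLC39A7, a zinc transporter of the endoplasmic reticulum, and at ERF, an ETS repressor, with −0.09, −0.09 and −0.01. ID2 had 4.72 ± 0.03 in WT PP against 4.63 ± 0.03 in A5-KO PP, with 2817 and 2434 input reads. These differences compare separately scaled lists, and without values per library none can be set against the spread between cultures.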

How the data were processed

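Reads had been trimmed (fastp) and aligned to GRCh38 (HISAT2) by the authors, who called peaks with exomePeak2 on the 2 IP and 2 input libraries of each population together. The deposited lists hold, per peak, whole IP and input read counts that are pooled over libraries (sum or mean is not given in the sources used here), a log2 enrichment of IP over input that exomePeak2 scales, and a p-value and adjusted p-value. The paper does not state whether a correction for GC was applied. The stated limits were an IP to input ratio of 1.5 and a p of 1e-05, while the deposited lists reach an adjusted p of 0.05. HOMER is also named in the processing notes.

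Each PP peak was intersected on its strand with the other lists and counted as found when more than 50% of its span was covered. Its enrichment was set beside that of the peak with most shared exonic bases. Spans were reduced to exons of GENCODE 44 on GRCh38 for length, distance, location and motifs. The distance of a member to an earlier peak was counted along exons, with windows of 100 and 200 nt. Shares carry Wilson 95% intervals and medians order-statistic 95% intervals. The counting error of a log2 enrichment comes from both counts with 0.5 added. PCR copies are not independent molecules, so these errors cover counting only. All 24 libraries entered through the 6 lists, and 0 columns were left without a group. Batch 1 held hPSC, DE, PP and hILO, and batch 2 WT PP and A5-KO PP. Input reads in peaks, which stand in for depth, numbered 6987612 (PP), 28463998 (hILO), 19034654 (WT PP) and 12716287 (A5-KO PP).

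The members and gene lists were chosen with earlier results of these data known. Named peaks were the 10 with most PP input reads, the 10 with the highest PP enrichment (1 per gene), those of genes with 3 or more members (at most 8 genes), all on the progenitor, endocrine and secretion lists, up to 4 on each other list, the 5 highest and 5 lowest differences between A5-KO PP and WT PP, the 10 with most reads in both, and the 2 on each side of a threshold, and others are marked as chosen later. Overlap and motif code was tested on simulated intervals. Alternatives covered the rule of choice, the overlap rule, the p threshold, pseudocounts and the motif strand. No model across libraries was fitted, because values per library were not used here. Python 3 with pandas, scipy and pysam was used. Results for a few genes that the rule names are not reported here.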

Additional observations from a re-analysis of the deposited data

How the results depend on the processing

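No paired analysis was possible because each list gives 1 value per peak pooled over libraries, and leaving out a library could not be done for the same reason. The number of members moved by over 1.5 times under both of these choices: reciprocal overlap with hILO left 642 and p below 1e-10 in PP left 594. Reciprocal overlap also gave 28.5% on genes without earlier peaks and 90.0% with a DRACH site. The share found in A5-KO PP was 39.4% with a log2 enrichment of 1 or more in PP and hILO and 39.7% with p below 1e-10. Members restricted to genes with a well covered earlier peak were found in 35.9% (WT PP) and 32.4% (A5-KO PP), lay in the coding sequence in 57.8% and held a DRACH site in 81.2%. How a peak counts as found mattered most. Any overlapping base gave 45.3% in WT PP against 40.9% in A5-KO PP, reciprocal overlap 14.4% and 17.9%, and only peaks with p below 1e-05 in the second list 23.5% and 22.9%. For any overlapping base the share over all PP peaks was not computed, so members are not compared with them under that rule. Counting any exonic base in the coding sequence gave 58.8%, and the opposite strand held a DRACH site in 77.3% of members. The cause of these shifts was not tested beyond the rules' own construction. The median difference between A5-KO PP and WT PP stayed within its interval, −0.13 to 0.29, under the 12 alternatives tried. A window of 100 nt at the stop codon held 7.40% of members.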
